A study of Drosophila melanogaster with 15 samples.

Results

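The response that 4 knockdowns of oxidative phosphorylation share in the central nervous system (CNS) of Drosophila melanogaster larvae was measured by pooling the 4 RNAi groups and setting their mean against control. All 15 arrays of the series enter it: 12 from RNAi larvae, in 4 groups of 3 that count equally, and 3 from control larvae. RNAi larvae expressed RNAi constructs against ND-75 (complex I, line 33910), UQCR-14 (complex III, line 109542), COX5B (complex IV, line 105769) or ATPsynCf6 (complex V, line 107826) under nsybGal4. The driver is active in neurons, and the dissected tissue also holds glia and progenitors. Control larvae carried the driver alone (nsybGal4/+, written nSyb-Gal4/w in the design text), without any RNAi construct. Each sample was 1 pool of whole CNS from 15 larvae late in the third instar reared at 25 degrees, and 10 ng of RNA was amplified and hybridised to an Affymetrix expression array. Whether the pools of a group came from separate crosses is not given, so p-values measure the spread between these pools. There was 1 RNAi line per target, and RNAi larvae differ from control larvae in carrying a construct at all. A response to the loss of respiration and one to the expression of an RNAi construct, or to the lines' genetic background, therefore cannot be told apart in the pooled comparison.

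Oxidative phosphorylation passes electrons from NADH and succinate along the complexes of the inner mitochondrial membrane to oxygen, and the ATP synthase uses the resulting proton gradient to make ATP. Neurons depend on this ATP for ion pumping and for the cycle of synaptic vesicles. In many cells a failing respiratory chain is known to be answered by transcription from the nucleus, through greater glycolysis, through ATF4 and the integrated stress response, or through mitochondrial chaperones.

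Values are MAS5 signals on a linear scale, and changes are differences in log2(signal + 16), RNAi mean minus control, from 1 limma fit of all arrays. A probe set or gene is said to have risen or fallen where its Benjamini-Hochberg adjusted p over all 10340 kept probe sets was under 0.05. Of the 15 arrays, 5 stood apart in their signal distribution, namely COX5B RNAi 1, COX5B RNAi 3, UQCR-14 RNAi 3, ND-75 RNAi 3 and control 3. Their upper quartiles were 170 to 485, against 566 to 653 in the other 10. Actin probes near the 3' end were brighter than those near the 5' end, a sign of RNA quality, by a ratio of 70.1 in COX5B RNAi 1. In ND-75 RNAi 2 this ratio reached 37.4 and in ND-75 RNAi 3 it reached 20.1, against 2.94 to 5.03 elsewhere. The fit therefore weighted the arrays, with estimated weights of 0.0266 to 0.297 for those 5 and 1.01 to 5.21 for the other 10. Beside it are given the counts over all kept probe sets with equal weights and over the 10 arrays alone (8 RNAi and 2 control). The weighted result leaned on control 1 and control 2. Without control 1 limma called 0 probe sets (247 at an unadjusted p under 0.05) and without control 2 it called 1, CG15784. In each of these fits the 2 control arrays left received the same weight by construction, 0.467 each without control 1, so that control 3 counted as much as the array beside it. With the weights kept at those of all 15 arrays, 112 probe sets were called without control 1. Every call named below from the weighted fit thus ended without control 1, and all but that of CG15784 without control 2. Where leaving out 1 array moved the value of a named call by over 1.5 times, the value without it is given.

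The targeted genes were looked at first. ND-75 had signals of 305, 195 and 194 in the arrays labelled ND-75 RNAi, against 335, 387 and 304 in control. The 3 UQCR-14 RNAi arrays read 7835, 6321 and 30487 for UQCR-14, against 7959, 6616 and 20967 in control. COX5B had 989, 1958 and 7716 in the arrays labelled COX5B RNAi, against 2725, 2952 and 8404 in control. For ATPsynCf6 the knockdown arrays of that label read 3585, 2828 and 3285, against 3108, 3003 and 3579 in control, and in all 4 genes the RNAi signals overlapped those of control. In their own groups the weighted changes were -0.41 for ND-75 (adjusted p = 0.444), -0.13 for UQCR-14 (0.863), -0.14 for COX5B (1.00) and 0.05 for ATPsynCf6 (0.869), and none passed the test. Over the 4 groups together the 4 genes stood between -0.17 and 0.11. The groups are named by their labels, and loss of each target's transcript was not established by these arrays.

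In the pooled comparison 227 probe sets rose (2.20% of those tested) and 186 fell (1.80%), 413 in all (3.99%). The rises had a median of 0.83 and reached 3.38, and the falls had a median of -0.73 and reached -3.06, while the median over all kept probe sets was -0.01. Of the 413, 102 changed by 1 or more on the log2 scale, 67 upward and 35 downward. All 4 group changes lay on the side of the pooled change in 392 of the 413. These calls rest on the mean of the same 4 changes, which share the control arrays. The count is therefore no separate evidence of a common response. Over the 10 arrays 172 rose (1.66%) and 151 fell (1.46%), 323 in all (3.12%), and 258 were called in the same direction there and in the weighted fit, which rest on largely the same arrays. With equal weights 4 rose (0.0387%) and 1 fell (0.00967%), 5 in all (0.0484%), with 176 (1.70%) at an unadjusted p under 0.05. Those 5 were Hsc70-2, CG15784, CG5079, the unnamed probe set 1635227_at and RFeSP, each also called in the weighted fit. In 33 of the 413, all 12 RNAi arrays lay beyond all 3 control arrays, 13 above and 20 below. Over all kept probe sets that held for 16 above (0.155%) and 39 below (0.377%).

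**Figure D1:**
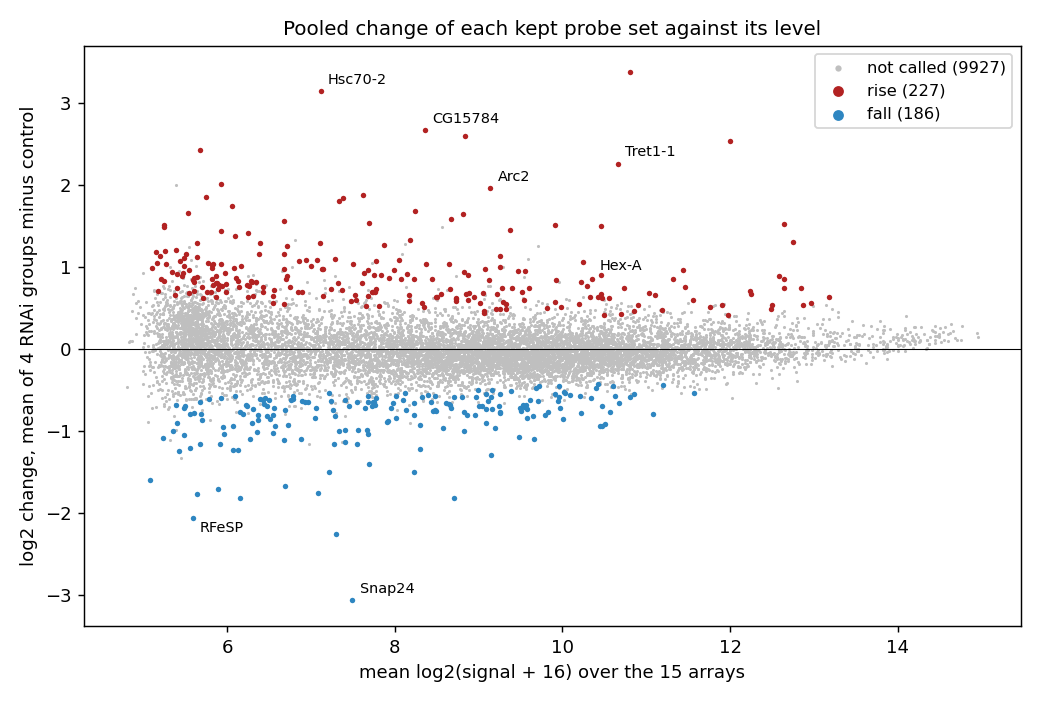
Pooled log2 change, mean of the 4 RNAi groups minus control, against the mean log2(signal + 16) over the 15 arrays, 1 point for each of 10340 kept probe sets. The 227 rises and 186 falls run from an unnamed probe set at 3.38 and Hsc70-2 at 3.15 to Snap24 at -3.06, around a median of -0.01 over all, and those of smaller size overlap probe sets not called.

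The largest rise of a named gene was that of Hsc70-2, a chaperone of the heat shock cognate 70 family (probe set 1636055_at). Its signal ran from 13.9 to 575 in RNAi arrays, with a median of 319, against 10.9, 7.14 and 32.3 in control. The RNAi arrays were above every control array in 11 of 12, the exception being ND-75 RNAi 2. The change was 3.15 (SE 0.18, adjusted p = 7.06e-09), and since its control signals lay under the array medians it has no exact size. CG15784, a gene of no role known here, ran from 113 to 1414 with a median of 467, against 65.1, 77.1 and 73.7 in control, and all 12 RNAi arrays were higher. It rose by 2.68 (SE 0.15, adjusted p = 7.06e-09). Tret1-1, a transporter of trehalose, the main sugar of fly blood, ran from 761 to 3514 with a median of 2607, against 414, 716 and 520 in control. Its groups did not overlap either, and it rose by 2.26 (SE 0.20, adjusted p = 9.03e-07), with changes of 1.83 to 2.56 in the single groups. Without control 1 the 3 changes were 2.79, 2.58 and 2.01 (adjusted p = 0.132, 0.0800 and 0.422), and without control 2 they were 2.67, 2.68 and 2.38 (0.0752, 0.0407 and 0.105).

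Arc1 and Arc2, neighbouring genes for capsid-forming proteins related to the Gag of retrotransposons, rose together. Arc2 ran from 43.8 to 1270 with a median of 806, against 172, 192 and 386 in control. The single RNAi array below control was COX5B RNAi 1, and the change was 1.96 (SE 0.15, adjusted p = 1.61e-07). Arc1 rose by 1.53 at its bright probe set, 1639180_at, with signals of 928 to 15169 against 3215, 2613 and 4122, and by 1.75 at its dim one. Without control 1 the change of Arc2 was 1.45 and without control 2 it was 1.51, and that of Arc1 at the bright probe set was 1.42 and 1.27. GstD2, a glutathione S-transferase, ran from 62.1 to 335 with a median of 287, against 63.7, 72.0 and 28.6 in control, and rose by 1.88 (SE 0.15, adjusted p = 4.37e-07). Oseg2, a component of transport along cilia, rose by 2.01 from control signals of 4.53 to 9.95, which are under the array medians. The remaining 9 of the 15 largest named rises were CG9021 (2.44), the cytochrome P450 Cyp6a17 (1.86), the pigmentation gene y (1.84), CG5646 (1.69), CG15731 (1.66), CdGAPr, which encodes a GTPase-activating protein (1.66), CG5079 (1.57), CG42694 (1.54) and the dim probe set of Arc1. Of these 15, 13 were also called over the 10 arrays. The 2 that were not, CG9021 (2.28, adjusted p = 0.242) and Cyp6a17 (1.83, adjusted p = 0.0664), had all 3 control signals under their array medians. So had Hsc70-2, Oseg2, CG15731, CG5079 and the dim probe set of Arc1, which were called there. None of these 7 changes has an exact size. CG9021 was at 1.32 and 1.38 without control 1 and control 2, and CG5646 at 0.79 and 0.97.

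**Figure D2:**
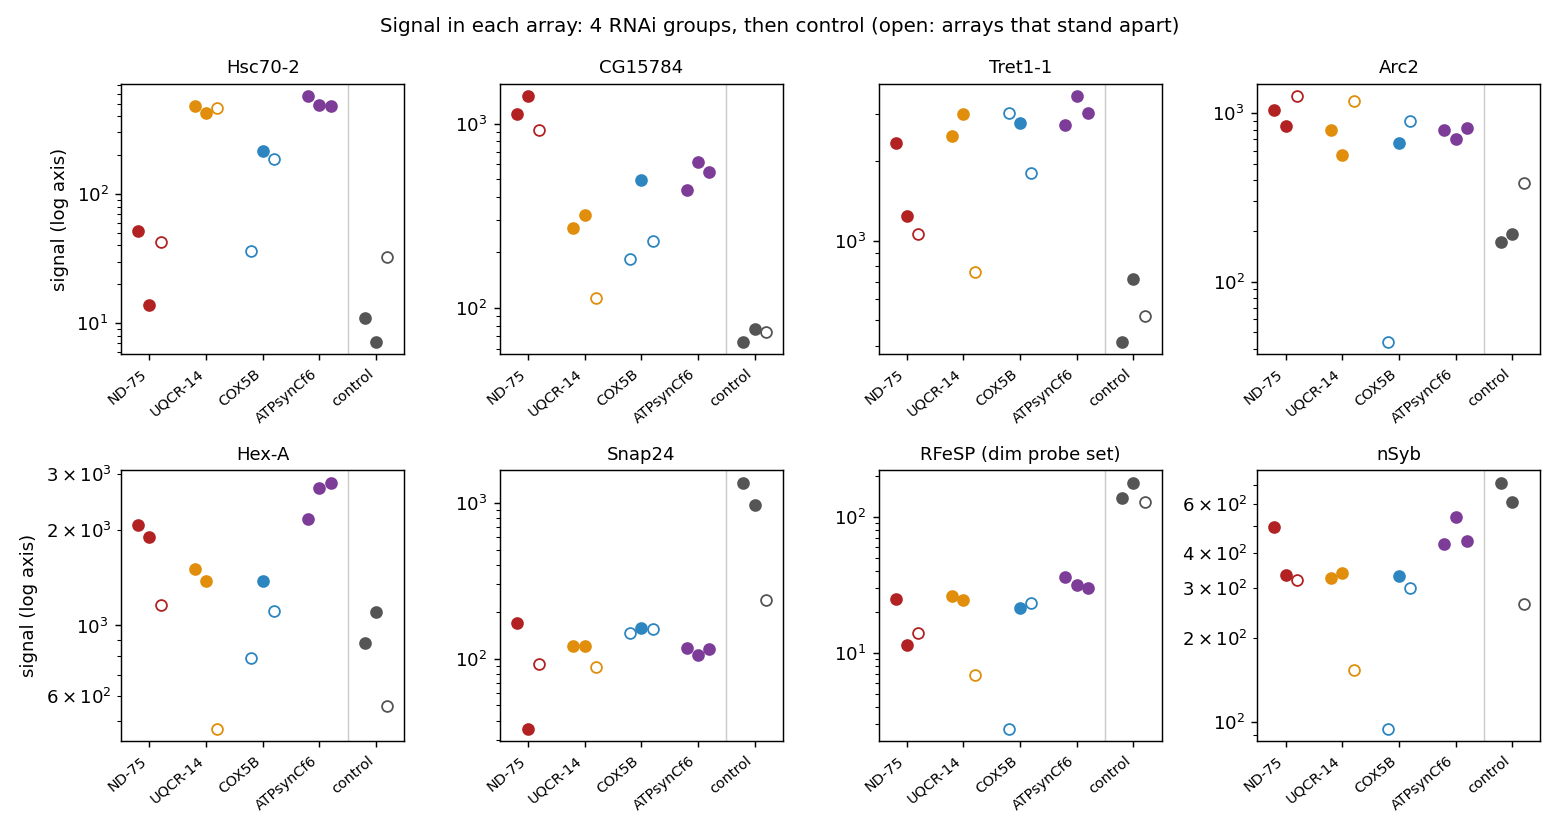
Signal on a log axis in each of the 15 arrays for 8 genes, with the 4 RNAi groups left of control and open points for the 5 arrays that stand apart. The RNAi arrays of CG15784 and Tret1-1 all sit above control and those of Snap24 and RFeSP all below it, while Arc2, Hex-A and nSyb overlap control in some arrays.

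Among the falls Snap24, a SNARE protein of the SNAP-25 family that acts in membrane fusion, came first (1635597_at). Its signals were 35.4 to 168 in RNAi arrays, with a median of 118, against 1346, 968 and 239 in control. No RNAi array reached the lowest control array, and the pooled change was -3.06 (SE 0.25, adjusted p = 4.37e-07), with -3.23 to -2.74 in the 4 groups (F test among them, adjusted p = 0.987). Control 3 was far lower than the other 2 control arrays, and the change was -1.85 without control 1 (adjusted p = 0.889) and -2.10 without control 2 (0.842). RFeSP encodes the Rieske iron-sulphur subunit of complex III. Its dim probe set 1641174_at had signals of 2.75 to 36.1 in RNAi arrays, against 138, 179 and 128 in control, and fell by 2.06 (SE 0.17, adjusted p = 3.72e-07). The brighter probe set of the same gene stood at -0.14 and was not called, so the fall belongs to 1 of its 2 probe sets, and 11 of its 12 RNAi signals lay under the array medians. Without control 1 and control 2 it was -2.06 and -1.89 (adjusted p = 0.325 and 0.342).

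KaiR1D, a kainate-type glutamate receptor subunit, ran from 56.9 to 1537 in RNAi arrays, against 1434, 1316 and 388 in control, and had a pooled change of -1.82 (SE 0.17, adjusted p = 1.38e-06). The change was -0.04 in ND-75 RNAi and -1.81 to -2.72 in the other 3 groups. Without control 1 and control 2 the pooled value was -0.91 and -0.97. CG6912 (-2.26) and CG18545 (-1.76) also stood apart in ND-75 RNAi, at -0.12 and -0.17 there and at -3.21 to -2.19 in the other 3. The transcription factor gene lola, which acts in axon guidance, fell by 1.40 at 1 of its 14 kept probe sets, the other 13 standing at -0.53 to 0.23. Arpc1, a subunit of the Arp2/3 complex that nucleates actin, fell by 1.29 (SE 0.16, adjusted p = 7.18e-05). The other named falls were CG11349 (-1.82), CG15919 (-1.76), Phyhd1 (-1.71), CtsK2 (-1.59), CG17816 (-1.50, 1 of 2 probe sets), CG12994 (-1.25), CG13679 (-1.23) and CG33468 (-1.23). Of the 15 named falls 14 were called over the 10 arrays as well, all but CG13679 (-1.41, adjusted p = 0.103). Without control 1 and control 2, lola was at -0.74 and -0.83, CG17816 at -0.51 and -0.56, CG13679 at -0.71 and -0.46, CG33468 at -0.70 and -0.71 and CG15919 at -3.07 and -3.11. CG18545 was at -1.09 and CG12994 at -1.95 without control 1, and CG11349 at -1.19 without control 2.

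**Figure D3:**
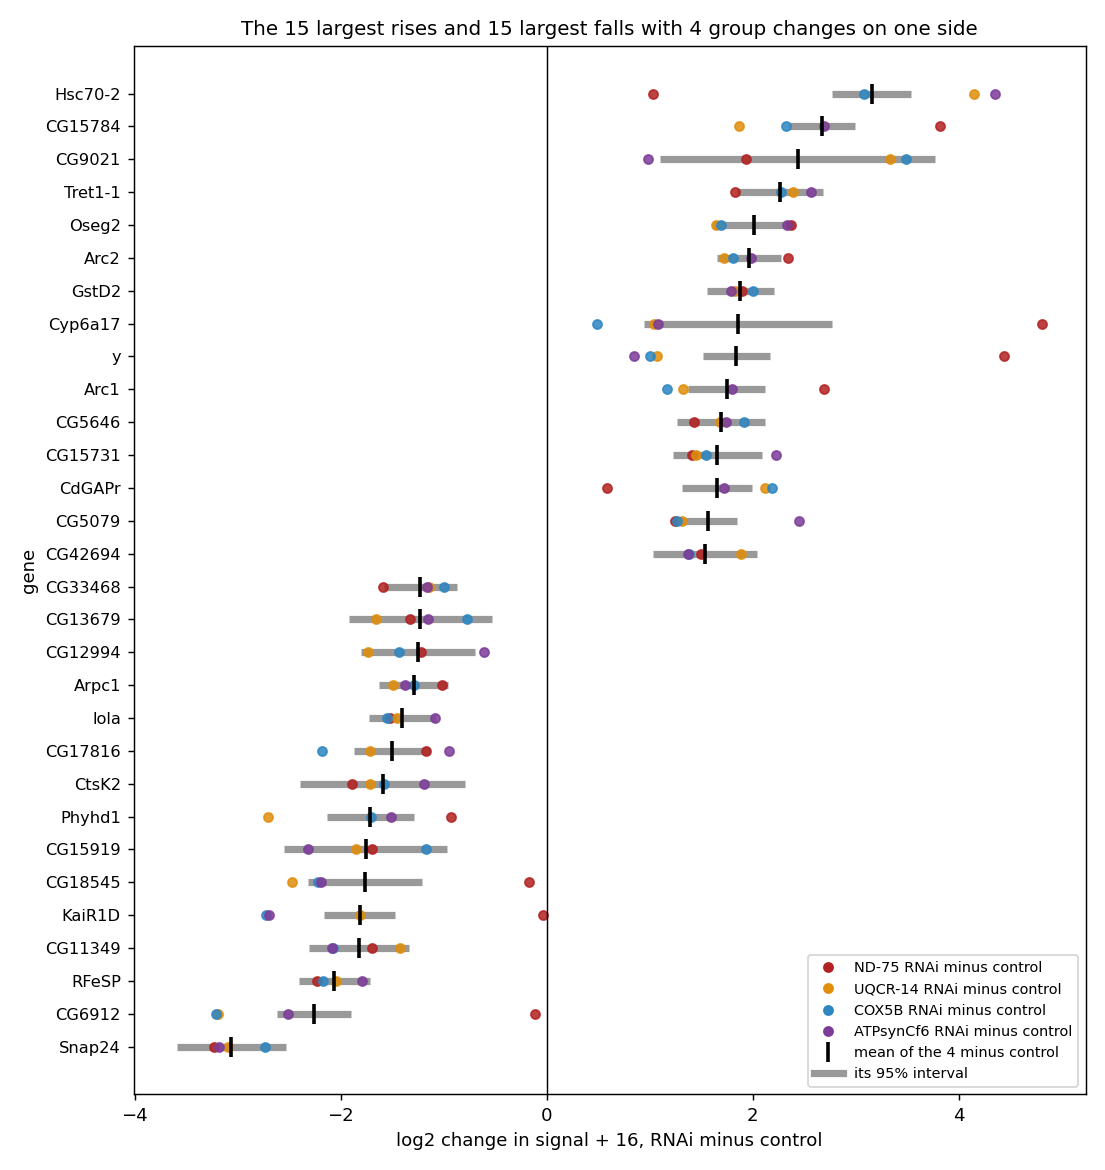
Log2 change against control of the 15 largest rises and 15 largest falls with 1 gene symbol and 4 group changes on the same side, with coloured points for the 4 RNAi groups, a black tick for their mean and a grey bar for its 95% interval. The points of Tret1-1, GstD2, Snap24 and RFeSP lie close together, while those of Hsc70-2, Cyp6a17, y, CG6912 and KaiR1D set ND-75 RNAi apart.

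How far the response was common was tested with a moderated F test among the 4 RNAi groups. It does not use the control level, though the control arrays enter its estimate of spread and the array weights. It passed for 281 probe sets (2.72%), among them 85 of the 413 called in the pooled comparison, and 328 of the 413 did not pass. A p that misses the threshold does not show that the groups were alike. Among the 30 named rises and falls, 7 rises and 4 falls passed. The contrast of ND-75 RNAi with the mean of the other 3 RNAi groups, added after the data had been seen, passed for 96 probe sets (0.928%), 47 of them among the 413. In 31 of these 47 the change was smaller in size in ND-75 RNAi than in the mean of the other 3, and in 16 it was larger. The 3' to 5' actin ratios of 37.4 and 20.1 belong to ND-75 RNAi 2 and 3, and their part in this difference was not tested. With 1 line per target, the target and the genetic background of its line cannot be told apart in this contrast either. Hsc70-2 stood at 1.03 in ND-75 RNAi and at 3.08 to 4.35 in the others, a difference of -2.83 (adjusted p = 2.30e-06). Cyp6a17 and y stood at 4.81 and 4.44 in ND-75 RNAi and at 0.49 to 1.08 in the others, so most of their pooled rise came from 1 group. Without the ND-75 RNAi group Cyp6a17 was at 0.87 (adjusted p = 0.372), and y still rose, by 0.97 (0.00222).

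For genes of the respiratory chain itself the counts are read against the 3.99% called over all kept probe sets, a share at which lists of this size would hold few calls. None of 26 measured nuclear-encoded complex I genes passed the test, with changes of -0.36 to 0.10 and a median of -0.06. None of 7 genes of complex III (median -0.10, each at its brightest probe set) and none of 12 of the ATP synthase (median 0.00) passed. Among 11 genes of complex IV, COX7AL rose and the other 10 were between -0.18 and 0.29. COX7AL, a paralogue of a small complex IV subunit by its name, had signals of 44.6 to 165 in RNAi arrays, all 12 above the control signals of 33.6, 17.5 and 36.1. Its change was 1.16 (SE 0.19, adjusted p = 0.00128). The signals in control 2 and control 3 lay under their array medians, which limits the size of this change. Of 14 genes of complex II and the tricarboxylic acid cycle only Idh3g passed, which encodes a subunit of NAD-dependent isocitrate dehydrogenase (0.63, SE 0.16, adjusted p = 0.0265). It was at 0.12 and 0.27 without COX5B RNAi 2 and 3, and at 0.99 and 1.11 without control 1 and 2. Among 70 mitochondrial ribosomal proteins 0 were called (median -0.01), and 0 of 15 genes of mitochondrial dynamics and biogenesis.

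Of 11 measured glycolytic genes 2 rose (18.2%, against 2.20% of all kept probe sets), with a median of 0.23 over the 11 against -0.01 over all. Hex-A, the hexokinase of the first step, had signals of 473 to 2809 with a median of 1438, against 884, 1100 and 556 in control, where 10 of 12 RNAi arrays were above every control array. It rose by 0.86 (SE 0.14, adjusted p = 0.00145), with changes of 0.45 in COX5B RNAi and 1.42 in ATPsynCf6 RNAi, and the F test among the groups passed (adjusted p = 0.0181). Ald1, an aldolase, rose by 0.86 (SE 0.14, adjusted p = 0.00128), with changes of 0.75 to 1.01 in the 4 groups, and its other probe set stood at 0.32. Without control 1 and control 2 the change of Hex-A was 1.14 and 1.29, and that of Ald1 0.75 and 0.97. Pfk, the phosphofructokinase, was at 0.47 (adjusted p = 0.0942), Tpi at 0.33, Gapdh1 at 0.27 and Eno at -0.06. Of 6 genes of trehalose and sugar transport Tret1-1 alone rose, with the trehalase gene Treh at 0.49 (adjusted p = 0.0707) and the glucose transporter gene Glut1 at -0.57 (adjusted p = 0.120). Pgm1, which joins glycogen and glucose metabolism as phosphoglucomutase, rose by 0.61 (adjusted p = 0.0265) and was picked out after its value had been seen. Its value was 0.07 and -0.01 without COX5B RNAi 2 and 3, and 0.31 without control 1.

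**Figure D4:**
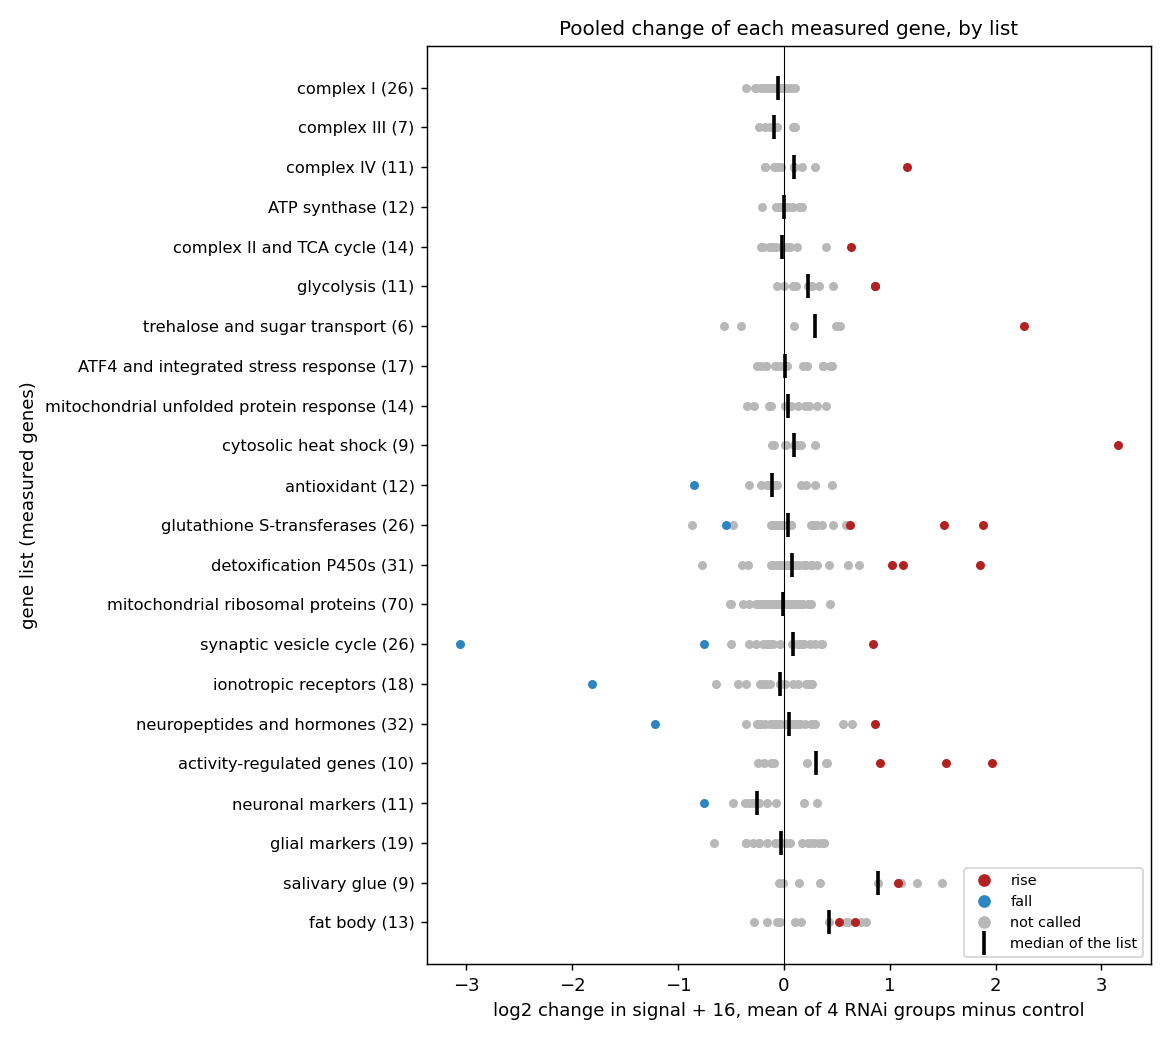
Pooled log2 change of each measured gene, at its brightest probe set, in 22 gene lists with the number of measured genes in brackets, red for rises, blue for falls, grey for genes not called and a black tick for the list's median. The complexes of the respiratory chain and the 70 mitochondrial ribosomal proteins sit around 0, with COX7AL (1.16) alone at the right. In every list that holds calls most members are grey.

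The lists for ATF4 and for the mitochondrial unfolded protein response had no called member, which at the overall share of 3.99% is no result about lists of this size. Of 17 measured genes of ATF4 and the integrated stress response 0 passed, with a median of 0.01. The gene of the fly's ATF4, crc, was at -0.22 (adjusted p = 0.513). Asparagine synthetase, AsnS, was at 0.44 (0.0747), Nmdmc of mitochondrial folate metabolism at 0.45 (0.295) and Pepck2 at 0.37 (0.375). None of 14 genes of the mitochondrial unfolded protein response passed, with the chaperone genes Hsp60A at 0.13 and Hsc70-5 at 0.32. Endoplasmic reticulum stress (0 of 14), amino acid tRNA synthetases (0 of 17), the hypoxia pathway (0 of 7) and the proteasome (0 of 26) had none either. Of 12 genes of serine, glycine and one-carbon metabolism Sam-S rose, which makes S-adenosylmethionine (0.49, adjusted p = 0.0259). Irbp18, a partner of ATF4 in flies, rose by 0.74 (adjusted p = 0.0173) and was also picked out after its value had been seen. It was at 0.20 both without control 1 and without control 2, and at 1.14 and 1.12 without COX5B RNAi 2 and 3. In the heat shock list Hsc70-2 was the 1 riser of 9, the other 8 lying between -0.11 and 0.30.

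Enzymes of detoxification changed in a few members. Over all kept probe sets 2.20% rose and 1.80% fell, a share at which lists of this size would hold few calls. Of 26 measured glutathione S-transferases 3 rose, namely GstD2 (1.88), GstE1 (1.51) and GstO3 (0.62), while GstZ2, of the class that acts in tyrosine breakdown, fell by 0.55. GstE1 had signals of 92.3 to 4094 in RNAi arrays, against 243, 557 and 1191 in control, with 6 of 12 above every control array, and was at 0.29 without control 1 and 0.88 without control 2. GstO3 was at 0.16 and 0.06 without COX5B RNAi 2 and 3 and at 0.29 and 0.31 without control 1 and 2. GstZ2 was at -1.10 and -1.06 without COX5B RNAi 2 and 3, and over the 10 arrays it was at -0.52 and was not called. Of 31 cytochrome P450 genes 3 rose: Cyp6a17 (1.86), Cyp4p2 (1.13) and Cyp9b2 (1.02). Cyp4p2 was high in UQCR-14 RNAi alone, at 4.60 there and at -0.25 to 0.09 in the other 3 groups, so its pooled value describes no common change. Of 12 antioxidant genes 0 rose and cnc fell. This gene encodes the fly relative of the oxidative stress factor Nrf2. Its signals were 293 to 2686 with a median of 1077, against 1766, 2116 and 866 in control, with a change of -0.85 (SE 0.17, adjusted p = 0.00537) that was -0.39 without control 1 and -0.26 without control 2.

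Genes of the synapse and of neuronal signalling changed in both directions. Their list counts are read against the 2.20% that rose and the 1.80% that fell over all kept probe sets. Of 26 genes of the synaptic vesicle cycle, Snap24 and nSyb fell, Syn rose and 23 were not called, with a median of 0.08. Here nSyb encodes the vesicle SNARE neuronal synaptobrevin, and its promoter drives the Gal4 of every group, control included. Its signals were 94.6 to 539 with a median of 334, against 714, 607 and 264 in control, and the change was -0.75 (SE 0.15, adjusted p = 0.00691). It rested on control 1 and control 2, at -0.07 without the first and -0.19 without the second. Synapsin, Syn, which tethers vesicles, rose by 0.84 (SE 0.20, adjusted p = 0.0199), which was 1.45 without control 2 and 0.51 and 0.47 without UQCR-14 RNAi 1 and 2. Complexin, cpx, fell by 0.84 at 1 probe set and stood at 0.19 at the brighter one, and was named after its value had been seen, at -0.52 without control 2. The paralogue of Snap24, Snap25, was at -0.16 (adjusted p = 0.686). KaiR1D was the 1 faller of 18 ionotropic receptor genes, and Hk, a subunit of Shaker potassium channels, that of 17 voltage-gated channel genes (-0.65, adjusted p = 0.0265). The other 2 kept probe sets of Hk stood at 0.11 and 0.24 and were not called. Among 32 neuropeptides and hormones Trissin fell by 1.21 (SE 0.19, adjusted p = 0.000712), its signals being 28.1 to 788 against 523, 660 and 1041, and AstC, allatostatin C, rose by 0.86 (SE 0.19, adjusted p = 0.0128). Of 10 genes known to be induced by neuronal activity 3 rose (2.20% of all kept probe sets did), namely Arc1, Arc2 and CG8910 (0.91), with Hr38 at 0.22, sr at -0.25 and kay at 0.39. Hk was at -0.41 and -0.34, and CG8910 at 1.38 and 1.46, without control 1 and control 2. Lgr3, a leucine-rich repeat receptor of the relaxin type, fell by 1.16 (adjusted p = 0.000721), was at -0.75 without control 2 and was named after its value had been seen.

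The tissue was checked against markers of the cell types it could hold. The neuronal genes elav and fne had control signals of 4496 to 9888 and 2054 to 5209, the glial gene repo 2863 to 4337 and the neuroblast gene ase 1203 to 2308, so the labelled tissue carried its defining transcripts. In bulk tissue, fewer cells of a type and less RNA per cell cannot be told apart. List counts here are of each gene's brightest probe set, against 2.20% rises and 1.80% falls over all kept probe sets. Of 11 neuronal markers nSyb fell and 10 were not called (median -0.25, elav at -0.48 with adjusted p = 0.176), and their summed signal was 8365 to 50116 in RNAi arrays against 16485 to 33508 in control. None of 19 glial markers was called at its brightest probe set (median -0.03). Of 19 neuroblast and progenitor markers 1 fell, erm, which acts in intermediate progenitors (-0.69, adjusted p = 0.0432), but its value was 0.28 both without control 1 and without control 2, and -1.06 without COX5B RNAi 2. With all probe sets counted, 2 fell among neuronal markers, 1 among glial markers and 2 among neuroblast and progenitor markers. None of 27 genes of cell cycle and DNA replication was called.

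Transcripts of tissues that lie beside the CNS were present. The summed signal of 9 salivary glue genes was 1002 to 18727 over the RNAi arrays, against 1027 to 13877 in control, and Sgs4 rose by 1.08 (adjusted p = 0.0376) while the other 8 were not called (list median 0.89). Its value was 0.47 without control 1, 0.67 without control 2 and 1.07 over the 10 arrays (adjusted p = 0.177). The glue sum was 3676 to 18727 in UQCR-14 RNAi and 1068 to 1862 in ATPsynCf6 RNAi. Of 13 fat body genes 2 rose, Desat1, an acyl-CoA desaturase (0.52), and LpR2, a lipoprotein receptor (0.67), with sums of 17850 to 31398 against 18573 to 21281 in control and a list median of 0.43. Muscle genes had 0 of 13 called at their brightest probe sets (median 0.33) and 1 fall at another, with sums of 1363 to 3804 against 1203 to 1601. Of 16 blood cell markers Hml fell (-0.94, adjusted p = 0.0116). Over all kept probe sets 2.20% rose and 1.80% fell, so lists of this size would hold few calls. With control 1 or control 2 left out, Hml was at -0.43 and -0.53 and Desat1 at 0.28 and 0.34. LpR2 was at 1.02 without COX5B RNAi 3, and over the 10 arrays it was at 0.58 and was not called. The part of these tissues in the other results was not tested. EcR, the ecdysone receptor gene, rose by 0.74 (SE 0.13, adjusted p = 0.00180), with changes of 0.06 in ND-75 RNAi and 0.52 to 1.35 in the others. Blimp-1, an ecdysone-induced repressor, fell by 1.00 (SE 0.22, adjusted p = 0.0116), with all 12 RNAi arrays below control, and the other 14 ecdysone response genes were not called. Blimp-1 was at -0.39 without control 1 and was not called over the 10 arrays (-0.84, adjusted p = 0.123), and EcR was at 1.14 without COX5B RNAi 3.

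In the list of apoptosis and JNK genes 1 of 16 rose, against 2.20% of all kept probe sets. It was grim, which promotes cell death by blocking the inhibitor Diap1. Its signals were 150 to 4139 with a median of 799, against 326, 319 and 279 in control, and 11 of 12 RNAi arrays were above control. The change was 1.45 (SE 0.19, adjusted p = 9.73e-05), with 1.02 to 1.83 in the 4 groups, and 1.55 and 1.53 without control 1 and control 2 (adjusted p = 0.889 and 0.842). Of 25 genes of autophagy and lysosomes Atg17, of the Atg1 kinase complex, fell by 0.69 (adjusted p = 0.0265). Its value was -0.10 without control 1, -0.17 without control 2 and -1.10 without COX5B RNAi 2. Over the 10 arrays Atg17 was at -0.59 and was not called. None of 12 immune genes, 8 genes of the RNAi machinery, 29 cytosolic ribosomal proteins or 18 genes of insulin and TOR signalling was called. Together the first 49 lists hold 751 measured genes, of which 24 rose (3.20%) and 11 fell (1.47%), against 2.20% and 1.80% of all kept probe sets. Most of the 328 genes with a called probe set thus lay outside these lists, as did most of the 8695 kept probe sets with 1 gene.

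A pair of further lists was written after the names of the called genes had been read, so their counts describe the calls and are no evidence about these functions. Of 90 measured genes of cell adhesion and axon guidance 3 rose and 8 fell (3.33% and 8.89%, against 2.20% and 1.80% of all kept probe sets). The fallers included dpr11 and DIP-alpha, cell surface proteins of the families through which neurons recognise partners (-1.04 and -0.69), the cadherin gene CadN (-0.58) and the semaphorin genes Sema1a and Sema2b (-0.59 and -0.62). The risers were Ndg, the nidogen of basement membranes (1.02), DIP-kappa (0.86) and the laminin gene wb (0.53). Of 73 chromatin and transcription regulators 7 rose, among them onecut (0.96) and escl, a Polycomb protein gene (0.97), and 10 fell, among them mamo (-0.94), bun (-0.93), simj (-0.90) and the histone demethylase gene Kdm5 (-0.88). The other probe sets of mamo, bun, Sema2b and wb stood at 0.26, 0.22, -0.19 and 0.32 and were not called. Many of the called values moved with single arrays. Without control 1 and control 2, dpr11 was at -0.53 and -0.53, mamo at -0.36 and -0.29, simj at 0.02 and -0.05, Sema1a at -0.13 and -0.06, CadN at 0.00 and -0.14, Ndg at 0.55 and 0.68 and wb at 0.26 and 0.29. Without control 2 alone Kdm5 was at -0.44, DIP-alpha at -0.39 and Sema2b at -0.40. Over the 10 arrays Sema2b (-0.59) and wb (0.51) were not called. Without COX5B RNAi 2 and 3, Sema1a was at -0.34 and -0.22 and CadN at -0.27 and -0.23, simj was at -1.39 without the first of them, and mamo and DIP-kappa were at -0.52 and 1.30 without the second.

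Some of the largest changes were at probe sets that the array annotation used here does not assign to a gene. These were 1629061_s_at, which rose by 3.38 with signals of 437 to 10066 against 223, 183 and 908, and 1635900_at, which rose by 2.60. Another, 1635227_at, rose by 2.54 with 3663 to 8264 in RNAi arrays, all 12 above the control signals of 661, 1290 and 1624, and was one of the 5 called with equal weights. Among the mitochondrial genes outside the lists, Fis1 of mitochondrial fission rose by 0.66 (1 of 2 probe sets), the magnesium exporter gene MME1 by 0.86 and the ferredoxin gene Fdx1 by 0.58. Naprt, an enzyme of NAD synthesis from nicotinic acid, rose by 0.75, with changes of 0.20 in ND-75 RNAi and 0.85 to 0.99 in the other 3 groups. The amino acid enzymes KFase and LKRSDH, which act on tryptophan and lysine breakdown, rose by 0.72 and 0.47. These 6 genes were named after their values had been seen. Without control 1, Fis1 was at 0.37, MME1 at 0.38 and Fdx1 at 0.38, and Fis1 was at 0.32 without control 2. Without COX5B RNAi 2, KFase was at 0.37 and LKRSDH at 0.22, and without COX5B RNAi 3 KFase was at 0.42.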

How the data were processed

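The authors' deposited table holds intensities on a linear scale, 1 signal for each of 18952 probe sets on 15 arrays. Per the submitters' processing notes, MAS5, the Transcriptome Analysis Console and the Affymetrix Expression Console were used. Versions and a genome build are not given in the sources used here. Their scaling was kept. After 183 array controls were set aside, log2(signal + 16) was taken, and 10340 probe sets above the array's own median on at least 3 arrays were kept (8695 with 1 gene, 256 with several, 1389 unlisted in the array annotation). In limma 3.58.1 (R 4.3.3), arrayWeights, lmFit with 5 group means and eBayes with an intensity trend gave two-sided tests, adjusted by Benjamini-Hochberg over all kept probe sets. The number of arrays and distance from background limit the precision.

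The genes named are the 4 targets, the 15 largest called rises and 15 largest called falls with 1 symbol and 4 group changes on the same side, up to 6 called members a list at their brightest probe set, and cell type markers. Exceptions are marked in the text. The comparison, the weights, the members and the gene lists were chosen with earlier results of these data known. Recovery of known changes was tested on simulated data. Equal weights, the 10 arrays, other pseudocounts, filters, normalizations, single arrays or groups left out and a replicate block were tried.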

Additional observations from a re-analysis of the deposited data

Results flagged for a closer look

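In 20 named genes the change differed among the 4 RNAi groups by the moderated F test, so that their pooled value averages unlike changes. The adjusted p of that test was 4.91e-07 for Hsc70-2, 0.000409 for CG15784, 0.00192 for Cyp6a17, 8.74e-09 for y, 0.0183 for Arc1 at its dim probe set, 0.00326 for CdGAPr and 0.000193 for CG5079 among the largest rises. Among the largest falls it was 2.07e-06 for CG6912, 2.1e-06 for KaiR1D, 0.00431 for CG18545 and 0.0102 for Phyhd1. Among members of gene lists it was 0.0181 for Hex-A, 0.0160 for Sgs4, 0.0295 for LpR2, 0.0113 for EcR, 0.0122 for DIP-kappa and 7.33e-09 for Cyp4p2. Among genes named after their values had been seen it was 0.0252 for LKRSDH, 0.0364 for Naprt and 0.0257 for the dim probe set of cpx. ND-75 RNAi had the smallest change in size of the 4 groups in Hsc70-2, CdGAPr, CG6912, KaiR1D, CG18545, Phyhd1, LpR2, EcR, DIP-kappa, Naprt and Cyp4p2. It had the largest in CG15784, Cyp6a17, y, Arc1 and LKRSDH. The 3' to 5' actin ratio, a sign of RNA quality, was 37.4 and 20.1 in ND-75 RNAi 2 and 3, and its part in these differences was not tested. Each target had its own line, so the target and the line's genetic background cannot be told apart in differences among the groups. The fall of cpx was smallest in ATPsynCf6 RNAi (-0.33). CG5079 and Hex-A changed most in ATPsynCf6 RNAi (2.45 and 1.42), and Cyp4p2 and Sgs4 in UQCR-14 RNAi (4.60 and 2.07). The glue sum was also highest in UQCR-14 RNAi, and its part in the value of Sgs4 was not tested.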

How the results depend on the processing

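The pooled count of 413 (227 rises, 186 falls, 281 for the F test, 35 called list genes) was 5 (4, 1, 11, 1) with equal array weights and 229 (137, 92) with no filter, where 23 list genes were called. Quantile normalization gave 1511 (767, 744, 2699, 126), and adding a replicate block gave 801 (393, 408, 831, 62) with array weights and 5 (4, 1, 11, 1) with equal weights. With group means removed, same-numbered arrays correlated at 0.167 to 0.852 in the 18 pairs that leave out ATPsynCf6 RNAi. In the 12 pairs that hold it they correlated at -0.362 to 0.149. Same-numbered arrays of the other 4 groups, control included, thus deviated together, and the main fit treats them as independent. The deviation was not shared over all 5 groups, and the block was kept as an alternative. The F test called 455 over the 10 arrays, 428 with a filter of 12 arrays and 717 with median centring. Median centring called 257 rises and 163 falls, a rise share of 61.2% against 55.0%. Without the UQCR-14 RNAi group 258 were called (102 falls), and Cyp4p2 was at -0.0279. Leaving out each array in turn gave 0 to 571 calls, 0 to 329 rises, 0 to 242 falls, 90 to 496 for the F test and 0 to 44 list genes. It gave 112 to 452 calls with weights kept, 79 to 728 over the 10 arrays (lowest without control 1) and 0 to 11 with equal weights. Besides control 1 (0) and control 2 (1), the count moved by over 1.5 times without COX5B RNAi 2 (19), COX5B RNAi 3 (27), UQCR-14 RNAi 1 (89), UQCR-14 RNAi 2 (100), ND-75 RNAi 1 (253) and ND-75 RNAi 2 (274). In these fits the 2 arrays left in a group received equal weights. Over the same fits erm ran from -1.06 to 0.28, simj from -1.39 to 0.0167, fred from -1.13 to 0.0733, CadN from -0.81 to 0.00271 and Abl from -1.03 to 0.13, each turning without control 1 (erm also, at 0.28, and fred, at 0.05, without control 2). Pgm1 ran from -0.00516 (without COX5B RNAi 3) to 0.68, and with equal weights it was at -0.00888 and -0.0830 without COX5B RNAi 2 and 3. With equal weights GstO3 was at -0.0071 without COX5B RNAi 3 and CadN at 0.0162 without control 1. The cause of these shifts was not tested. Signals under the array medians limit the size of changes.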
